A study of Mus musculus with 6 samples.

Results

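Genes of mouse chromosomes 1, 5, 17 and 18 were followed in windows of 10 Mb, to see whether the allelic skew of one B-cell clone ran evenly along each chromosome or sat in a segment. A gene was a member if it lay on one of these chromosomes and had at least 20 allelic counts, both alleles together, in each of 6 RNA-seq libraries. This gave 1799 of 3642 genes of the 4 chromosomes in the allele table, against 8702 of 19400 genes on all autosomes and X. Chromosome 1 held 492 members, chromosome 5 held 599, chromosome 17 held 466 and chromosome 18 held 242. The 4 chromosomes were selected on measured values: the maternal share (the part of a gene's allelic counts that came from the maternal copy) was already known to be skewed there in Abl.3. Values of that share in Abl.3 are therefore a description and carry no test.

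The study compared immortalised clonal B-cell lines of F1 mice from a cross of 129S1/SvImJ and CAST/EiJ, and its title concerns monoallelic expression and DNA methylation. The labels give Abl.3 as male and the other lines as female. All 6 libraries were controls: cells in growth medium with 1% DMSO, a solvent, collected on day 2. Each line is 1 clone with 2 library preparation replicates, so a spread between libraries covers library preparation and counting, not the difference between clones of 1 genotype. Allelic counts per library ran from 18362319 to 26881211, of which 3939779 to 5342694 fell on the members. The median member had 964 to 1432 counts in a library. All 9 B lineage markers were above 1 TPM in every library, with a summed level of 12571 to 13960 TPM, while T lineage, erythroid and fibroblast markers summed to at most 0.69 TPM. Myeloid markers summed to 75.0 to 193 TPM. Most of this was Lyz2, which was highest in Abl.2, at 158 and 193 TPM. Itgam went the other way, at 0.51 and 0.35 TPM in Abl.2 against 6.89 and 6.74 in Abl.4. Csf1r and Mpo stayed below 1 TPM.

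In a diploid cell each autosomal gene is present as a maternal and a paternal copy, and most genes are read from both. A single gene can depart from equal shares through a sequence variant in its own regulatory DNA, through parental imprinting, or because a clone keeps one copy silent. A departure shared by most genes of a chromosome is a different kind of pattern, since neighbouring genes then lean the same way whatever their function. Windows along the chromosome show which of these patterns a skew has.

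The regulatory DNA of 3 genes is shown first, 1 each for chromosomes 1, 5 and 17. These genes were picked because their maternal share differed widely between Abl.3 and Abl.4. Each run holds 250 bases before and 50 bases after the gene's start, from the RefSeq reference (GRCm38.p6), and CG dinucleotides, the sites of DNA methylation, are in capitals. Of 1795 member gene symbols, 1288 had such an entry. Xrcc5 encodes a subunit of the Ku complex of DNA break repair (chr1:72307171-72307470, plus strand). Spp1 encodes osteopontin, a secreted phosphoprotein (chr5:104434861-104435160, plus strand). Cul7 encodes a cullin, the scaffold of a ubiquitin ligase (chr17:46650088-46650387, plus strand).
Xrcc5: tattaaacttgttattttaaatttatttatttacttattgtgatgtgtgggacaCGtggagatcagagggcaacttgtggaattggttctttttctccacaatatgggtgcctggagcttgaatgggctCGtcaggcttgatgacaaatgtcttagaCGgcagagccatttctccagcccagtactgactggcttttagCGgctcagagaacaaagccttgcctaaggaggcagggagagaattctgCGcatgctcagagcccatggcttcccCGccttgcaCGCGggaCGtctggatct
Spp1: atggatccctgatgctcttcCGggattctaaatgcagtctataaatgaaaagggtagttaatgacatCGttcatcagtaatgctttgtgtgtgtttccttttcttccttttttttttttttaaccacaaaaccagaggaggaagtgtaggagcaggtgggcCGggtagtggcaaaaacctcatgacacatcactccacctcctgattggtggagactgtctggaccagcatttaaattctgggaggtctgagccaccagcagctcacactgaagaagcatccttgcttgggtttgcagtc
Cul7: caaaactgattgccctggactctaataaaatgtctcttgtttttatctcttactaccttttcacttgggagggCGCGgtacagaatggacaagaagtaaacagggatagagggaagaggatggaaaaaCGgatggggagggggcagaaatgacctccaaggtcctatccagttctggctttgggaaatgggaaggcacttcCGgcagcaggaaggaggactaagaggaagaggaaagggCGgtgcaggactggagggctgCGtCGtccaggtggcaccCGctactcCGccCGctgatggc

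The window of Xrcc5 holds 9 CG dinucleotides, a number that 45.8% of all 32851 promoters in the RefSeq table reach. The Cul7 window holds 10, reached by 43.5%, and the Spp1 window holds 3, reached by 76.7%. The median promoter of a member gene held 22 and the median of all promoters 7. These runs are those of the reference strain, not of the alleles counted here, and methylation was not measured in the libraries used here.

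Chromosome 1 leaned to the paternal allele in Abl.3 from end to end. For Abl.3 the maternal share of the median gene was 0.447 ± 0.00086, while Abl.4 stood at 0.505 ± 0.0017 and Abl.2 at 0.504 ± 0.005 (SD, n = 2). All 20 windows held at least 5 members, the minimum for counting a window. The summed share of Abl.3 was below 0.5 in all 20 of them in both libraries. In 19 of the 20 windows both Abl.3 libraries lay below both Abl.4 libraries, while 49.4% of all 247 autosomal windows did so. By the median gene of each window, 20 of 20 lay below, against 34.8% of all autosomal windows. The first window, from 0 to 10 Mb, overlapped by its sum, with Abl.3 at 0.457 and 0.459 and Abl.4 at 0.473 and 0.457.

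The lowest window of chromosome 1 in Abl.3 ran from 150 to 160 Mb, with 26 members and shares of 0.332 and 0.342. Abl.4 stood at 0.408 and 0.414 there, and Abl.2 at 0.373 and 0.377, so this window was low in all 3 lines. By the sum of all members, the highest window ran from 190 to 200 Mb, with 20 members. It stood at 0.473 and 0.476 in Abl.3, 0.529 and 0.521 in Abl.4, and 0.570 and 0.571 in Abl.2. The difference of Abl.3 minus Abl.4 was widest from 160 to 170 Mb, at -0.0912, and its median over windows was -0.0496. The 19 windows below Abl.4 formed 1 unbroken run.

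Chromosome 5 leaned to the paternal allele as well, with 2 windows going the other way by their sums. Its median gene stood at 0.45 ± 0.0026 for Abl.3, at 0.5 in both libraries of Abl.4, and at 0.491 ± 0.00029 for Abl.2 (SD, n = 2). Of 15 counted windows, 13 had both Abl.3 libraries below both Abl.4 libraries, against 49.4% of all autosomal windows. By the median gene it was 14 of 15, against 34.8%. The window from 60 to 70 Mb was lowest, with 21 members at 0.380 and 0.384 in Abl.3 against 0.499 and 0.488 in Abl.4 and 0.556 and 0.551 in Abl.2. Its leading gene was Rhoh, a small GTPase of blood cells, with 25.5% of the counts of the window. The window from 0 to 10 Mb was highest, at 0.497 and 0.509 in Abl.3 against 0.557 and 0.566 in Abl.4.

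The exceptions on chromosome 5 were looked at with and without their leading gene. From 100 to 110 Mb, 46 members gave 0.440 and 0.437 in Abl.3 and 0.387 and 0.408 in Abl.4. Spp1 supplied 22.7% of the counts of that window, at a share of 0.789 and 0.790 in Abl.3, 0.153 and 0.153 in Abl.4, and 0.563 and 0.569 in Abl.2. Without Spp1 the mean share was 0.405 in Abl.3 and 0.432 in Abl.4, which is the order of the rest of the chromosome. From 50 to 60 Mb, 9 members gave 0.505 and 0.472 in Abl.3 and 0.457 and 0.442 in Abl.4. Smim20 supplied 49.9% of those counts, and without it Abl.3 was still higher, at 0.436 against 0.398. By the median gene that window was also higher in Abl.3, at 0.450 against 0.436, so it was the 1 counted window of the 4 chromosomes that went against its chromosome by both measures.

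Chromosome 17 leaned the other way, to the maternal allele. For Abl.3 the median gene stood at 0.548 ± 0.0019, against 0.5 ± 0.004 for Abl.4 and 0.502 ± 0.00013 for Abl.2 (SD, n = 2). In 9 of 9 counted windows both Abl.3 libraries lay above both Abl.4 libraries, by the sum and by the median gene, against 28.3% and 22.7% of all autosomal windows. The window from 40 to 50 Mb was highest, with 57 members at 0.588 and 0.589 in Abl.3, 0.547 and 0.564 in Abl.4, and 0.544 and 0.552 in Abl.2. The window from 10 to 20 Mb was lowest, with 12 members at 0.4997 and 0.509 in Abl.3 and 0.462 and 0.479 in Abl.4. The histocompatibility genes lie between 30 and 40 Mb, where 106 members gave 0.576 and 0.573 in Abl.3 and 0.550 and 0.552 in Abl.4, the smallest difference of the chromosome by the sum at 0.0233. By the median gene that window stood at 0.549 in Abl.3 and 0.490 in Abl.4, and the smallest difference was from 10 to 20 Mb, at 0.517 against 0.487.

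Chromosome 18 leaned to the paternal allele. Abl.3 had its median gene at 0.459 ± 0.0021, while Abl.4 stood at 0.502 ± 0.0042 and Abl.2 at 0.494 ± 0.0024 (SD, n = 2). In 9 of 9 counted windows both Abl.3 libraries lay below both Abl.4 libraries by the sum, against 49.4% of all autosomal windows. By the median gene 8 of 9 did so, against 34.8%. The exception by the median gene ran from 30 to 40 Mb, at 0.468 in Abl.3 against 0.478 in Abl.4, and it held 86 members, the most of the chromosome. The window from 40 to 50 Mb was above 0.5 in all 3 lines, at 0.586 and 0.567 in Abl.3, 0.629 and 0.613 in Abl.4, and 0.568 and 0.551 in Abl.2. The lowest ran from 10 to 20 Mb, at 0.387 and 0.399 in Abl.3 and 0.449 and 0.452 in Abl.4. Abl.2 also lay below Abl.4 in 9 of 9 windows here by the sum, with a median difference of -0.0217 against -0.0579 for Abl.3, and in 5 of 9 by the median gene. Of all autosomal windows, 40.5% had Abl.2 below Abl.4 by the sum and 25.9% by the median gene.

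**Figure D1:**
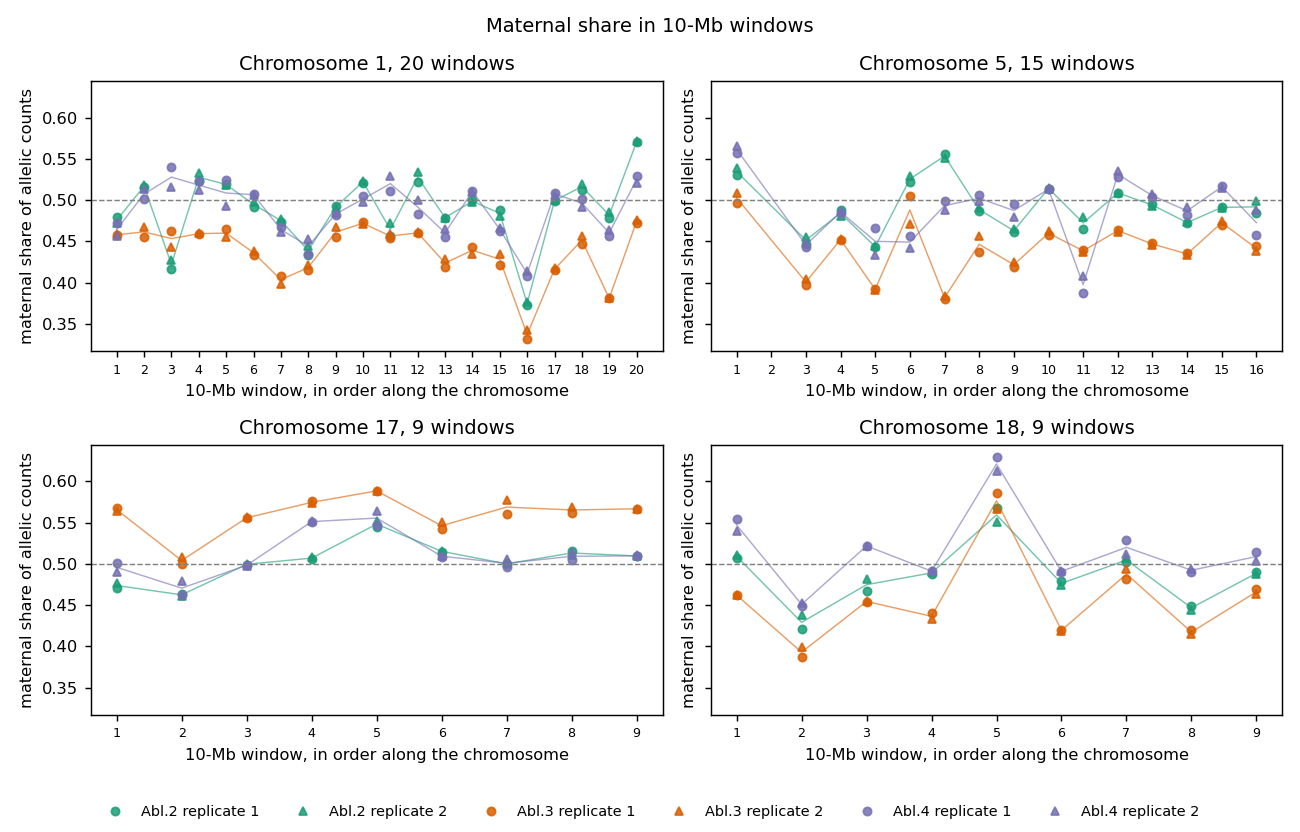
Maternal share of allelic counts (vertical axis) in counted 10-Mb windows in order along chromosomes 1, 5, 17 and 18 (horizontal axis); points are single libraries of Abl.2, Abl.3 and Abl.4, thin lines join the means of 2 libraries, and the dashed line marks 0.5. On chromosomes 1, 5 and 18 the Abl.3 points lie below those of Abl.4 in 19 of 20, 13 of 15 and 9 of 9 windows, and on chromosome 17 above them in 9 of 9. Of all autosomal windows 49.4% lie below and 28.3% above.

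The skew was thus not confined to a segment of any of the 4 chromosomes. Differences between Abl.3 and Abl.4, by the median gene of a window, had an SD over windows of 0.02, 0.0218, 0.0133 and 0.027 on chromosomes 1, 5, 17 and 18, beside 0.0195 over 166 windows of 13 reference autosomes. By the median gene, chromosome 18 varied more than the reference windows, with differences from -0.0996 to -0.0103, and chromosomes 1 and 5 slightly more. By the sum, chromosome 5 varied more than the reference windows. The SDs were then 0.0222, 0.0386, 0.0169 and 0.0171 on the same 4 chromosomes, beside 0.0281. The reference autosomes are all but these 4 and chromosomes 4 and 10, on which Abl.2 is skewed. Their median gene share in Abl.3 ran from 0.492 to 0.510. A counted window held 3947 to 413568 allelic counts in a library, and the widest 95% Wilson interval of a window's share was 0.0307, which covers counting error only, because copies made by PCR cannot be told from separate molecules here.

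The proximal and distal parts of each chromosome, split at the middle gene, had nearly the same share in Abl.3. On chromosome 1 the proximal 245 genes had a median of 0.453 and the distal 246 genes 0.440, with Abl.4 at 0.508 and 0.4996. On chromosome 5 the 2 parts were at 0.443 and 0.455, on chromosome 17 at 0.546 and 0.549, and on chromosome 18 at 0.458 and 0.459. The skew was also present at low and high read numbers. When genes were split into 3 equal groups by allelic counts in Abl.2 and Abl.4, the lowest, middle and highest groups had medians of 0.436, 0.451 and 0.448 in Abl.3 on chromosome 1. They were 0.439, 0.454 and 0.452 on chromosome 5, and 0.565, 0.543 and 0.547 on chromosome 17. On chromosome 18 they were 0.469, 0.458 and 0.454, and the lowest group, of 81 genes, was the 1 group in which Abl.4, at 0.461, was not above Abl.3.

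Near the count minimum the medians rest on few genes. The 18 members of chromosomes 1, 5 and 18 with 20 to 24 counts in their poorest library had a median share of 0.430 in Abl.3 and 0.513 in Abl.4, and the 32 genes just outside, with 15 to 19 counts, had 0.466 and 0.557. On chromosome 17 the 10 members just inside stood at 0.594 in both lines, and the 17 genes just outside at 0.574 and 0.448.

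Most single genes took part. The mean share was lower in Abl.3 than in Abl.4 for 83.7% of placed genes on chromosome 1, 83.0% on chromosome 5 and 78.0% on chromosome 18, and higher for 83.2% on chromosome 17. On the reference autosomes 50.9% were lower. Both Abl.3 libraries lay below both Abl.4 libraries for 61.1%, 65.1% and 56.4% of genes on chromosomes 1, 5 and 18, where 28.8% of all 8473 placed autosomal genes did. Both lay above for 61.3% on chromosome 17, where 22.8% of all did. The edgeR quasi-likelihood test counted 328 members with a lower and 145 with a higher maternal share in Abl.3 than in Abl.4, beside 7.93% and 8.53% of the 8702 genes tested. The members were chosen with this contrast in view, so nothing is read from that count. It fell to 196 and 92 without Abl.3 replicate 1 and to 195 and 89 without Abl.3 replicate 2.

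Abl.2 was also compared with Abl.4. The choice of chromosomes did not use that contrast, although Abl.4 entered the choice as the line that Abl.3 was set against. The same edgeR test, with Benjamini-Hochberg adjustment over 8702 genes, gave 116 of 1799 members with a higher and 111 with a lower maternal share in Abl.2. Over all genes 12.7% and 9.61% were called, and on the reference autosomes 7.46% and 6.71%, beside 6.45% and 6.17% of the members. With the allele totals of each library as sizes, the members' counts were 86 higher and 243 lower. By chromosome the higher and lower calls were 47 and 25 on chromosome 1, 30 and 45 on chromosome 5, 32 and 22 on chromosome 17, and 7 and 19 on chromosome 18.

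Of the 12 genes with the most reads, 3 for each chromosome, 11 had both Abl.3 libraries apart from both Abl.4 libraries on the side of their chromosome. The chromosomes were chosen on this contrast, so nothing is read from that count. Parp1, a DNA damage sensor on chromosome 1, had shares of 0.460 and 0.463 in Abl.3 against 0.527 and 0.516 in Abl.4 and 0.525 and 0.527 in Abl.2. Anapc5, a subunit of the anaphase-promoting complex on chromosome 5, was at 0.404 and 0.396 in Abl.3 against 0.492 and 0.504 in Abl.4. Rplp0, a ribosomal stalk protein on chromosome 5, was at 0.467 and 0.455 against 0.507 and 0.515. The other 3 of these chromosomes were Ctse, an aspartic protease, at 0.416 and 0.405 against 0.482 and 0.476, Sft2d2 at 0.441 and 0.473 against 0.543 and 0.536, and Eif4h, a translation initiation factor, at 0.427 and 0.415 against 0.474 and 0.492. In each of these genes the Abl.3 libraries lay below those of both other lines.

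On chromosome 17, Ezr, which links the membrane to actin, was at 0.595 and 0.594 in Abl.3 and 0.519 and 0.511 in Abl.4. Rps2, a ribosomal protein, was at 0.613 and 0.612 against 0.534 and 0.530. H2-K1, a class I histocompatibility molecule that presents peptides, was at 0.554 and 0.548 against 0.527 and 0.517. Here the Abl.3 libraries lay above. Ribosomal protein genes have near-identical processed copies and H2-K1 has close relatives, so their counts are less certain than those of the others.

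On chromosome 18, Mzb1, an endoplasmic reticulum protein of B cells, was at 0.285 and 0.294 in Abl.3 against 0.434 and 0.426 in Abl.4. Lars, a leucyl-tRNA synthetase, was at 0.488 and 0.490 against 0.590 and 0.573. Tcof1, a nucleolar protein of ribosome production, did not follow, with 0.517 and 0.536 in Abl.3 overlapping 0.523 and 0.483 in Abl.4.

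A few genes stood far from their chromosome, and these were named for their wide share differences. Xrcc5 (chromosome 1, 72307421 to 72394952), whose promoter is printed above, was at 0.652 and 0.679 in Abl.3, 0.614 and 0.586 in Abl.2, and 0.00296 and 0.00283 in Abl.4. Almost no maternal count was found in Abl.4, while the other two lines had counts of both alleles. Plxna2 (chromosome 1, 194618218 to 194816869), a semaphorin receptor, was at 0.623 and 0.660 in Abl.3, 0.920 and 0.930 in Abl.2 and no maternal count in 242 and 255 counts of Abl.4, which allows shares of up to 0.0124 and 0.0118. Both were higher in Abl.3 than in Abl.4, on a chromosome that otherwise leaned lower.

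Zap70 (chromosome 1, 36761798 to 36782818), a kinase best known from T cell receptors, was at 0.223 and 0.213 in Abl.3, 0.961 and 0.903 in Abl.4, and 0.661 and 0.794 in Abl.2. Nuak2 (chromosome 1, 132316126 to 132333488), a stress kinase, had 0.00214 and 0 in Abl.3, where the second library had 524 counts and allows up to 0.00573. Abl.4 was at 0.559 and 0.476 and Abl.2 at 0.485 and 0.582. These lay further below Abl.4 than their chromosome did.

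On chromosome 5, Lrpap1 (35091501 to 35105766), a chaperone of lipoprotein receptors, was at 0.95 and 0.957 in Abl.3 and at 0.428 and 0.411 in Abl.4. Ssh1 (113937094 to 113993894), a phosphatase that acts on cofilin, had no maternal count among 462 and 473 counts of Abl.3, allowing up to 0.00649 and 0.00634, and shares of 0.993 and 1 in Abl.4. Gnpda2 (69573108 to 69592340), an amino sugar enzyme, was at 0.0677 and 0.0273 in Abl.3 and 1 and 0.987 in Abl.4. Ssh1 and Gnpda2 sat at opposite ends of the scale in these clones, and Abl.2 was with Abl.3 for both, at 0.00386 and 0 for Ssh1 and 0.136 and 0.00935 for Gnpda2.

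On chromosome 17, Cul7 (46650337 to 46664364) was at 0.616 and 0.582 in Abl.3, 0.00202 and 0.00735 in Abl.4, and 0.98 and 0.993 in Abl.2. Amdhd2 (24155833 to 24163766), another amino sugar enzyme, was at 0.384 and 0.359 in Abl.3 and 0 and 0.0174 in Abl.4, the first of these over 331 counts and allowing up to 0.00906. Adamts10 (33524204 to 33553782), a secreted protease, was at 0.799 and 0.740 in Abl.3 and 1 in both libraries of Abl.4. H2-DMb1 (34153072 to 34160230), which helps load peptides on class II molecules, was at 0.559 and 0.401 against 0.767 and 0.751. The first pair were higher in Abl.3, as the chromosome was, and the second pair went against it. Zap70, Gnpda2, Spp1 and Cul7 each overlap 1 other annotated gene and Plxna2 overlaps 4; whether counting used the strand is not given in the sources used here, so their counts can hold reads of a neighbour.

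On chromosome 18, Fech (64456550 to 64489066), the enzyme that inserts iron into haem, was at 1 and 0.996 in Abl.3, 0.0864 and 0.0614 in Abl.4, and 0 and 0.00166 in Abl.2. Slc14a1 (78100091 to 78142119), a urea transporter, was at 0.959 and 0.957 in Abl.3 and 0.669 and 0.609 in Abl.4. Acaa2 (74779197 to 74806207), a thiolase of fatty acid breakdown, was at 0.415 and 0.398 against 0.687 and 0.709. Adnp2 (80126311 to 80151482), a homeobox zinc finger protein, was at 0.532 and 0.451 against 0.98 and 0.967, with 0.00221 and 0.00311 in Abl.2. Of these 4, Acaa2 and Adnp2 leaned the way of the chromosome.

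**Figure D2:**
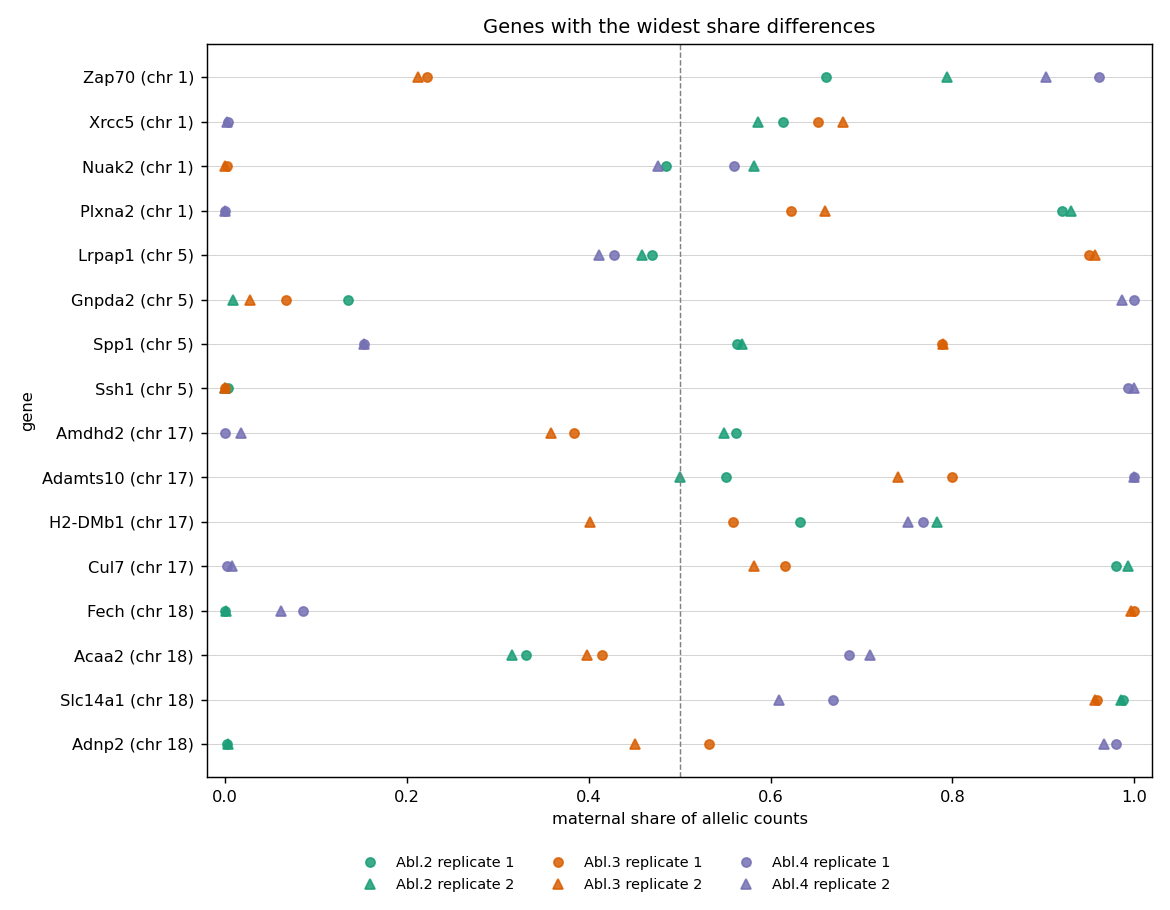
Maternal share of allelic counts (horizontal axis) in each library for the genes of the 4 chromosomes with the widest share differences between Abl.3 and Abl.4 (vertical axis, with the chromosome); points are single libraries and the dashed line marks 0.5. Ssh1 and Gnpda2 are near 0 in Abl.3 and near 1 in Abl.4, and Fech lies the other way, at 1 and 0.996 against 0.0864 and 0.0614.

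Counting the alleles apart shows which of them was higher. Allelic counts of a gene were scaled to 1000000 counts on members of the reference autosomes, and the median log2 change of Abl.3 minus Abl.4 was taken on the log2(value + 0.5) scale. On chromosomes 1, 5 and 18 the paternal allele was higher in Abl.3, by 0.22, 0.255 and 0.24, and the maternal allele was at -0.12, -0.04 and -0.09. On chromosome 17 the maternal allele was higher by 0.30 and the paternal allele was at -0.003. Over the 13 reference autosomes the maternal change ran from -0.15 to 0.04 and the paternal change from -0.13 to 0.06. The maternal changes of chromosomes 1, 5 and 18 lay inside the first range, and the raised allele of each of the 4 chromosomes lay outside its range. These changes hold the share that chose the chromosomes, so they are a description and the comparison with the reference autosomes is no test. The 2 Abl.3 libraries gave 0.21 and 0.24 for the paternal allele of chromosome 1, 0.27 and 0.26 for chromosome 5, and 0.24 and 0.23 for chromosome 18. They gave 0.31 and 0.32 for the maternal allele of chromosome 17. Each was set against the mean of Abl.4, whose own libraries differed on 2 chromosomes. Replicate 1 minus replicate 2 of Abl.4 was -0.088 paternal and -0.071 maternal on chromosome 1, and -0.105 and -0.093 on chromosome 18. It was 0.017 and 0.011 on chromosome 5, and -0.016 and -0.015 on the reference autosomes. The maternal changes of chromosomes 1 and 18 were not far from that spread in size.

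**Figure D3:**
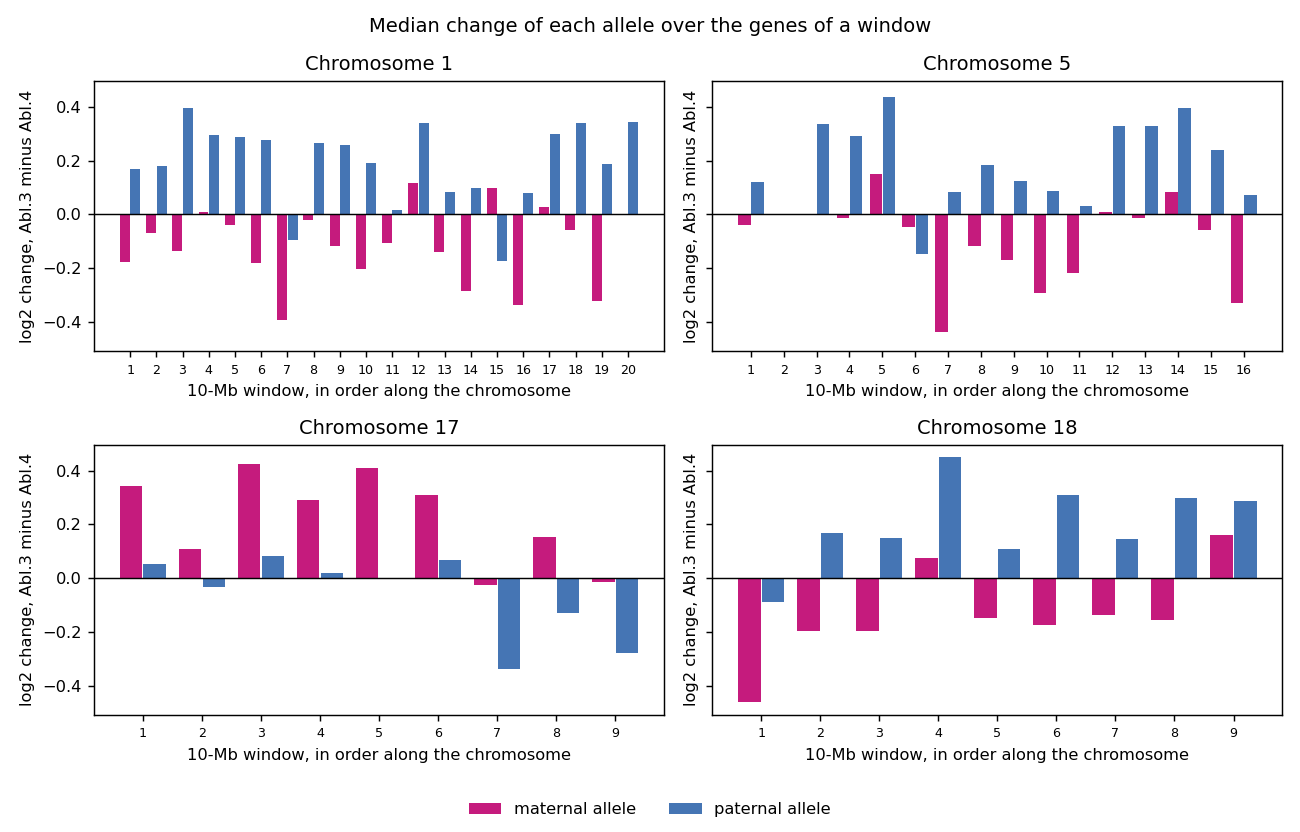
Median log2 change of the maternal and of the paternal allele, Abl.3 minus Abl.4 (vertical axis), over the genes of each counted 10-Mb window in order along the 4 chromosomes (horizontal axis); bars start at 0. The paternal bar exceeds the maternal bar on chromosomes 1, 5 and 18 except from 140 to 150 Mb of chromosome 1 and from 50 to 60 Mb of chromosome 5, and the maternal bar exceeds the paternal bar in all 9 windows of chromosome 17.

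The paternal change was above 0 in most windows of chromosomes 1, 5 and 18, and exceptions lay singly. On chromosome 1 it was below 0 from 60 to 70 Mb, at -0.09, and from 140 to 150 Mb, at -0.17. On chromosome 5 it was below 0 from 50 to 60 Mb, at -0.15, the window that also went against the share. On chromosome 18 it was below 0 from 0 to 10 Mb, at -0.09, where the maternal change was -0.46. On chromosome 17 the maternal change was 0.11 to 0.42 in the first 6 windows and 0.15 from 70 to 80 Mb, and -0.03 and -0.02 from 60 to 70 and from 80 to 90 Mb, where the paternal change was -0.34 and -0.28.

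Total abundance was compared in TPM, a transcript abundance scaled to gene length and to the library total, with each library centred on the median of the reference genes. Of the 1799 members, 1681 had a mean of at least 1 TPM and 58 were not in the abundance table. The TPM come from the same libraries as the shares that picked the chromosomes, so the chromosome counts below are a description. In bulk RNA, fewer cells of a kind and less RNA per cell cannot be told apart. On the log2(TPM + 1) scale the median change of Abl.3 against Abl.4 was 0.15 on chromosome 1, 0.18 on chromosome 5, 0.26 on chromosome 17 and 0.18 on chromosome 18. The 13 reference autosomes ran from -0.03 to 0.11. For Abl.2 against Abl.4 the same 4 medians were 0.06, 0.08, 0.06 and 0.03, against -0.01 to 0.07 on the reference autosomes. These directions are relative to the other autosomes. In the deposited TPM without centring, the reference genes were shifted by -0.18, all 11003 tested genes by -0.15 and the members by -0.04, so the direction of the members as such turns.

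**Figure D4:**
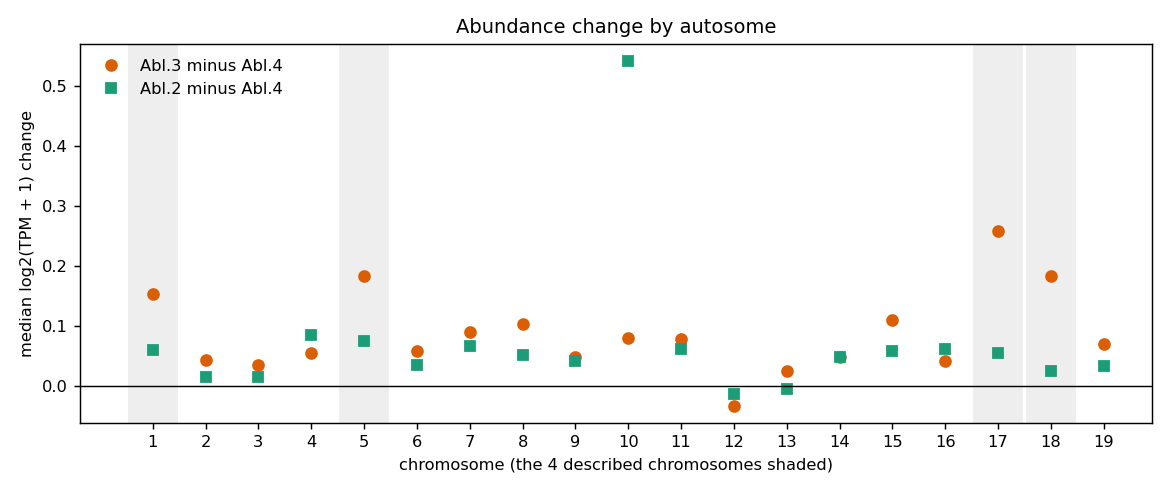
Median change in log2(TPM + 1), centred on the reference genes (vertical axis), by autosome (horizontal axis), for Abl.3 minus Abl.4 (circles) and Abl.2 minus Abl.4 (squares); the 4 described chromosomes are shaded. The circles of chromosomes 1, 5, 17 and 18 stand at 0.15, 0.18, 0.26 and 0.18, above those of the other autosomes, and the square of chromosome 10 stands at 0.54.

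In limma with Benjamini-Hochberg adjustment over 11003 genes, 552 members were higher and 159 lower in Abl.3 than in Abl.4, of 1681 tested. Over all tested genes 25.1% were higher and 14.3% lower, and among the members 32.8% and 9.46%. By chromosome the higher and lower counts were 137 and 47 on chromosome 1, 187 and 57 on chromosome 5, 166 and 42 on chromosome 17, and 62 and 13 on chromosome 18. The higher genes made up 77.6% of the called members, 43.9% without centring, 68.4% after quantile normalisation and 65.8% when edgeR was run on the summed allelic counts. Without Abl.3 replicate 1 the counts were 309 and 91, and without Abl.3 replicate 2 they were 321 and 99.

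At the level of windows the abundance change was less regular than the share. The median change of a window's genes was above 0 in 18 of 20 windows of chromosome 1, 11 of 15 of chromosome 5, 7 of 9 of chromosome 17 and 8 of 9 of chromosome 18, against 104 of 163 reference windows. On chromosome 17 it was 0.33, 0.06, 0.36, 0.28, 0.30 and 0.29 in the first 6 windows and -0.08, 0.15 and -0.07 in the last 3, while the share stayed above Abl.4 in all 9. Across windows the signed share difference, Abl.3 minus Abl.4 by the median gene, was correlated with the abundance change. The correlation was 0.025 over 20 windows of chromosome 1, 0.017 over 15 of chromosome 5, 0.549 over 9 of chromosome 17 and 0.637 over 9 of chromosome 18. The share difference was positive on chromosome 17 and negative on chromosome 18. A larger rise in abundance thus went with a wider share difference on chromosome 17 and with a narrower one on chromosome 18. These windows share libraries, and the values are descriptions.

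A limma test of each window's library medians called 13 of 53 windows higher and 4 lower in Abl.3, beside 12.7% and 11.1% of all 244 windows tested. The direction is relative to the reference genes: in the TPM as deposited, without centring, the same test called 2 higher and 17 lower. Means over genes in place of medians gave 26 higher and 1 lower. With each gene first centred on its own mean, an alternative added after the data were seen, limma called 0 of 53 in either direction, beside 0% higher and 0.410% lower of all windows. At an unadjusted p under 0.05 that measure had 21 higher and 2 lower, and the library medians had 22 and 5. The median shift over the 53 windows was 0.11 by library medians and 0.09 with genes centred, and on chromosome 17 it was 0.06 and 0.20. For Abl.3 against Abl.2, limma on the library medians called 11 of 53 higher and 5 lower, beside 8.59% and 14.1% of reference windows. With genes centred it called 7 of 53 higher and 0 lower, beside 3.69% and 6.97% of all windows. Without Abl.3 replicate 1 the library medians gave 3 higher and 0 lower for Abl.3 against Abl.4, without Abl.3 replicate 2 they gave 3 and 1, and without Abl.4 replicate 2 they gave 7 higher. With the replicate number as a block they gave 21 higher and 5 lower.

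Single genes changed more than their chromosomes. On chromosome 1, Rgs1, which dampens chemokine receptor signals, was at 35.4 and 40.8 TPM in Abl.3 and 132 and 171 in Abl.4. It fell by 1.72 (SE 0.15, adjusted p = 0.000388 by limma). Its share overlapped between the lines, at 0.495 and 0.564 against 0.497 and 0.507.

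On chromosome 5, Psmg3, a proteasome assembly chaperone, rose from 68.5 and 66.0 TPM in Abl.4 to 169 and 163 in Abl.3, by 1.53 (SE 0.076, adjusted p = 3.85e-05 by limma). Myl10, a myosin light chain, fell from 177 and 199 TPM to 58.4 and 69.7, by 1.31 (SE 0.121, adjusted p = 0.000515 by limma), and its maternal share was 0.077 and 0.0615 in Abl.3 against 0.405 and 0.389. On chromosome 17, Znrd1, a subunit of RNA polymerase I, rose from 60.4 and 50.4 to 187 and 180 TPM, by 1.95 (SE 0.112, adjusted p = 6.66e-05 by limma).

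On chromosome 18, Egr1, an immediate early transcription factor, rose from 85.8 and 85.6 TPM in Abl.4 to 273 and 245 in Abl.3, by 1.82 (SE 0.091, adjusted p = 3.85e-05 by limma). Its share was near 0.5 in all 6 libraries, from 0.508 to 0.556. Pqlc1 fell from 112 and 102 to 54.7 and 52.5 TPM, by 0.74 (SE 0.094, adjusted p = 0.00167 by limma). In Abl.2 its maternal share was 0.994 and 0.997 and in Abl.3 0.524 and 0.531. None of the groups named for abundance overlapped between Abl.3 and Abl.4.

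A list of genes known in blood and immune cells gave 67 members, of which 65 were tested for abundance: 20 were higher and 12 lower in Abl.3 than in Abl.4. Over all tested genes 25.1% were higher and 14.3% lower, so both counts lay near the background, and the counts by chromosome below are small. On chromosome 17, 8 of 23 were higher and 3 lower, with a median change of 0.13. The antigen processing genes of the histocompatibility region did not move as a block. Psmb9 and Psmb8, subunits of the immunoproteasome, rose by 0.44 (adjusted p = 0.00361 by limma) and 0.34 (adjusted p = 0.0355 by limma). Tap2, a subunit of the peptide transporter, fell by 0.43 (adjusted p = 0.0156 by limma), and Tap1 was at -0.28 (adjusted p = 0.0963 by limma). Psmb9 and Tap1 overlap in the annotation. Both Abl.3 libraries had a higher maternal share than both Abl.4 libraries in 17 of the 23 and a lower one in 2, where 61.3% of all genes of the chromosome and 22.8% of all placed autosomal genes had a higher one. The chromosome was chosen on this contrast, so nothing is read from that count.

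On chromosome 1, 5 of 15 listed genes were higher and 4 lower in abundance, with a median change of 0.14, and 7 had a lower and 2 a higher share in both Abl.3 libraries, where 61.1% of all genes of the chromosome had a lower one. Ptprc, the CD45 phosphatase of blood cells, fell by 0.59 (adjusted p = 0.00291 by limma), and Btg2, an antiproliferative gene, rose by 0.64 (adjusted p = 0.00149 by limma). On chromosome 5, 1 of 11 was higher and 2 lower, with a median of -0.05: Cdk6, a kinase of the cell cycle, rose by 0.92 (adjusted p = 0.000555 by limma), while Rhoh fell by 0.63 (adjusted p = 0.00225 by limma) and Spp1 by 0.54 (adjusted p = 0.0035 by limma). On chromosome 18, 6 of 16 were higher and 3 lower, with a median of 0.20. Cd74, the class II invariant chain, rose by 0.77 (adjusted p = 0.00159 by limma), and Smad7, an inhibitor of TGF-beta signalling, fell by 0.93 (adjusted p = 0.00397 by limma). All of these directions are relative to the reference genes.

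The authors' deposited table of maternal fractions with confidence limits, made after averaging replicates, holds the same lean. Its median fraction in Abl.3 was 0.45, 0.45, 0.55 and 0.46 on chromosomes 1, 5, 17 and 18. In the authors' deposited table the interval lay below 0.5 for 29.0%, 29.4%, 7.78% and 23.7% of genes with an estimate, and above 0.5 for 7.86%, 6.34%, 24.6% and 7.63%. On the reference autosomes of the authors' deposited table it was 11.3% below and 11.5% above. Most genes of the 4 chromosomes therefore had an interval that reached 0.5. Such an interval does not decide whether a gene leaned, so these values do not show which single genes took part.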

How the data were processed

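Libraries were made with SMARTseq v4 from 10 ng of RNA, per the labels' protocols. The submitters' processing notes name STAR 2.5.4a, SAMtools, GATK and DESeq2 with GRCm38, GRCh37 and mm10, without saying which step used which. Per the file headers, the authors' deposited allelic table holds counts at SNP positions of each gene. Abundance was deposited as TPM, which the headers say were made with DESeq2. The deposited table of allelic imbalance holds the fraction of maternal counts with its limits. TPM keep no depth. It is not stated whether a read over several SNPs counts once. Starts are those of the authors' tables, and 94.7% of the members had the same start in GENCODE M21. The 3 members with no start were not placed.

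Members and lists were chosen with earlier results of these data known. Allelic counts were tested with edgeR 4.0.16 (quasi-likelihood, library intercepts, an allele effect per line), and log2(TPM + 1) with limma 3.58.1 (trend), after centring on 5365 reference genes. Adjusted p-values are Benjamini-Hochberg, with a threshold of 0.05. Fold changes of low genes are understated on this scale. For each chromosome the named genes are the 3 with the most allelic counts, the 2 widest share differences in each direction with at least 100 counts per library and no overlap, and the largest rise and fall at a mean log2 of at least 5, plus a list of blood and immune genes. Scripts were tested on simulated data. Alternatives changed count minimums, pseudocounts, window sizes, scaling, tools and left-out libraries. Replicates of a line differed by 1.93 to 2.33 times the binomial spread, so none was counted as a copy of another. Some genes that the rule names are not reported here.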

Additional observations from a re-analysis of the deposited data

Results flagged for a closer look

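Among the 36 genes chosen for their counts, their share difference or their abundance change, 15 had both libraries of Abl.3 on one side of a maternal share of 0.5 and both of Abl.4 on the other. Of all 8473 placed autosomal genes, 10.9% did so. The listed blood and immune genes were not looked at in this way unless they were also named for one of these. The chromosomes, and many of these genes, were chosen on this contrast, so the values are a description and no test of theirs is given here. On chromosome 1 the share difference, Abl.3 minus Abl.4, was -0.715 for Zap70, 0.663 for Xrcc5, 0.641 for Plxna2, -0.0603 for Parp1 and -0.0826 for Sft2d2. On chromosome 5 it was 0.534 for Lrpap1, -0.946 for Gnpda2, 0.637 for Spp1, -0.997 for Ssh1 and -0.0498 for Rplp0. On chromosome 17 it was 0.594 for Cul7 and 0.568 for Znrd1. On chromosome 18 it was 0.924 for Fech, -0.291 for Acaa2 and -0.0926 for Lars.

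Of the 53 counted windows, 17 had the libraries of Abl.3 and Abl.4 on opposite sides of 0.5 in the same way, while 15.8% of all 247 autosomal windows did so, and for these too the difference was not tested. On chromosome 1 the windows starting at 10, 20, 30, 50, 100, 130, 160 and 190 Mb differed by -0.0458, -0.0745, -0.0588, -0.0703, -0.0634, -0.0713, -0.0912 and -0.0506. On chromosome 5 those starting at 90, 110, 120 and 140 Mb differed by -0.0533, -0.0681, -0.0584 and -0.0434. On chromosome 17 the window starting at 20 Mb differed by 0.0575. On chromosome 18 those starting at 0, 20, 60 and 80 Mb differed by -0.0849, -0.0672, -0.0324 and -0.0426.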

How the results depend on the processing

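The lean of Abl.3 kept its side of 0.5 on each of the 4 chromosomes under every alternative run. The median window share was 0.452, 0.447, 0.566 and 0.454 on chromosomes 1, 5, 17 and 18. Taken over median genes it was 0.448, 0.446, 0.544 and 0.453. Without the top gene of each window it was 0.445, 0.438 and 0.454 on chromosomes 1, 5 and 18, and without strongly biased genes 0.448, 0.555 and 0.447 on chromosomes 1, 17 and 18. Windows of 5 Mb gave 0.447, 0.441, 0.562 and 0.453, and windows of 20 Mb 0.440, 0.445 and 0.465 on chromosomes 1, 5 and 18. Windows shifted by 5 Mb gave 0.442, 0.448 and 0.460 on the same 3. A minimum of 10 counts gave 0.453 on chromosome 1, and one of 50 counts 0.455 on chromosome 18. Windows apart from Abl.4 came to 100% on chromosome 1 by median genes and by 20-Mb windows, and to 100% on chromosome 5 by 20-Mb windows. The cause of these moves was not tested.

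Leaving out a library, with the lone library of its line assumed to vary like the others, gave median shares of 0.449 to 0.452, 0.445 to 0.447, 0.562 to 0.567 and 0.454 to 0.455 on chromosomes 1, 5, 17 and 18, and windows apart in 95% to 100%, 86.7%, 100% and 100%. Called allelic differences of Abl.3 minus Abl.4 then ran from 89 to 135 higher and 195 to 282 lower. For Abl.3 minus Abl.2, 166 higher and 349 lower became 114 to 186 and 215 to 387. For Abl.2 minus Abl.4 they ran from 84 to 118 and 80 to 108. Abundance calls of members ran from 309 to 508 higher and 91 to 138 lower, and of windows from 3 to 11 higher and 0 to 3 lower. Window shifts of abundance ran from 0.02 to 0.086, 0.156 to 0.2, 0.056 to 0.116 and 0.133 to 0.280.

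For Abl.3 minus Abl.2, 166 members were called higher and 349 lower, or 9.23% and 19.4%, beside 7% and 7.71% of reference genes. Both counts moved when a library was left out. With allele totals as sizes, Abl.3 minus Abl.2 gave 251 higher and 219 lower, and Abl.2 minus Abl.4 gave 243 lower. The chromosomes were chosen on the skew of Abl.3, so nothing is read from the counts of Abl.3 minus Abl.2. Without centring, member abundance gave 257 higher and 329 lower, and windows 2 higher and 17 lower. The median window shift of library medians, 0.063, 0.158, 0.056 and 0.217 when centred, then turned to -0.175, -0.079, -0.181 and -0.021, because all genes shift with the scale. Means over genes gave 26 windows higher and 1 lower, with shifts of 0.155, 0.219 and 0.142 on chromosomes 1, 17 and 18. Windows of 20 Mb gave 5 higher and 2 lower, with 0.148 and 0.090 on chromosomes 1 and 18, and shifted windows 2 lower, with 0.258 on chromosome 18. Summed allelic counts, scaled to the counts on members of the reference autosomes and then centred, gave 0.231 and 0.137 on chromosomes 17 and 18. Some alternatives were chosen after seeing the data: centring on all tested reference genes gave 0.095 and 0.256 on chromosomes 17 and 18, and centring each gene gave 0.2 and 0.077 there with 0 windows called in either direction.

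The replicate block gave 21 windows higher and changed no other count by over 1.5 times. Same-numbered libraries correlated at 0.104 to 0.187 in abundance deviations and at -0.056 to 0.015 in share deviations, and the labels do not say that a number marks a shared batch. Whether the numbers pair the libraries in abundance cannot be told from 2 numbers per line. The abundance changes of Rgs1, Psmg3, Myl10, Znrd1, Egr1 and Pqlc1 kept their direction and call under the alternatives run for them. No such statement is made for the listed blood and immune genes. Depth limits single genes and windows with few members.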
